A study of Elaeis guineensis with 9 samples.

Results

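In leaves of the African oil palm, Elaeis guineensis, 32 predicted mRNAs stood higher in every Deli x LaMe library than in any library of Deli x Yangambi or Deli x SP540. They were taken from 43433 predicted mRNA rows among the 51490 transcript rows of the deposited table. Each row is 1 transcript model, and its value is in TPM (a length-corrected transcript abundance scaled to a fixed total per library), the share that one transcript takes of a library. A row was included when its mean over the 9 libraries was under 1000 TPM, its lowest LaMe value was at least 5 TPM, and that value was at least 2 times its highest value in the 6 Yangambi and SP540 libraries. The rows were thus selected on their measured TPM in LaMe against the other libraries, and that height is given as a description with no test. Of the 32 rows, 20 were paired with 20 genes of a RefSeq gene table, all protein-coding, and 12 had no partner there. The table gives these genes only LOC numbers, so no function is assigned to any of them.

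All palms were of the Tenera cultivar, were 7 years old with yields recorded over 4 years, and grew in a single field; leaves were sampled at frond 17. The 3 populations, Deli x LaMe, Deli x Yangambi and Deli x SP540, were each represented by 1 low-yield, 1 medium-yield and 1 high-yield library, so a population held 3 libraries and a yield class held 3. Neither the number of palms behind a library nor any batch is given in the labels, so p-values measure only the spread between these libraries. Of 8 genes known for flowers or embryos, 7 stayed at or under 0.735 TPM in every library, and the MADS-box flower gene DEF1 reached 6.23 TPM. Genes that define leaf tissue, such as those of the photosynthetic apparatus, have no name in the gene table and were not matched.

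Commercial oil palm is the cross of a thick-shelled Deli dura mother with pollen of an African pisifera line, and the thin-shelled tenera progeny give the oil. La Mé pollen parents trace to Ivory Coast and Yangambi parents to the Congo basin, so that the crosses share the Deli side and differ in the other parent. Transcript levels that differ between such crosses can follow inherited variants at or near a gene.

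The rule gave a higher count for LaMe than for any other set of 3 libraries. Applied to the 3 SP540 libraries it found 14 rows, and applied to the 3 Yangambi libraries it found 14. The other 81 of the 84 possible sets mixed populations. They gave between 0 and 4 rows, with a median of 1, and 26 of them gave none. The 3 low-yield libraries gave 0 rows, the 3 medium-yield libraries gave 1 and the 3 high-yield libraries gave 0. The sets overlap one another in their libraries, and no p-value is attached to this ranking.

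**Figure D1:**
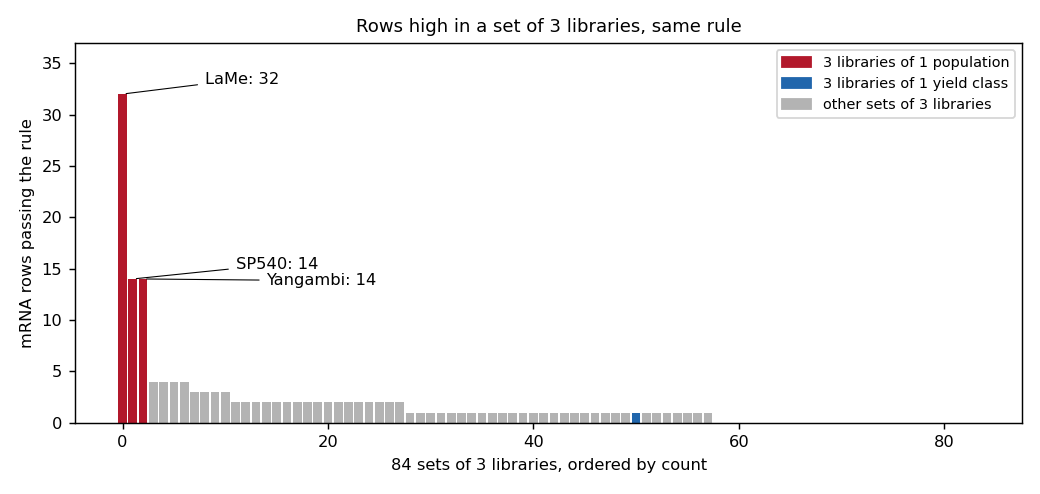
Number of predicted mRNA rows (y axis) that pass the same rule for each of the 84 sets of 3 libraries (x axis, ordered by count), with sets of 1 population in red, sets of 1 yield class in blue and all others in grey. LaMe has 32 rows, SP540 and Yangambi have 14 each, and no mixed set exceeds 4.

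The 32 rows made up 0.241% of the 13284 predicted mRNA rows that were under 1000 TPM on average and at 5 TPM or more in all 3 LaMe libraries. Among non-coding rows that met those limits, 6 of 639 (0.939%) also passed the rule. Most of the 32 rows were of modest level. Their mean in LaMe ran from 5.56 to 354 TPM with a median of 15.4 TPM, against a median of 20.7 TPM over the 13284 rows. It was under 20 TPM in 21 rows, between 20 and 100 TPM in 9 and over 100 TPM in 2. Together the 32 rows held 1138 to 1276 TPM in the LaMe libraries, 210 to 269 TPM in the Yangambi libraries and 189 to 273 TPM in the SP540 libraries. In leaf tissue as a whole, fewer cells of a type and less RNA per cell cannot be told apart.

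**Figure D2:**
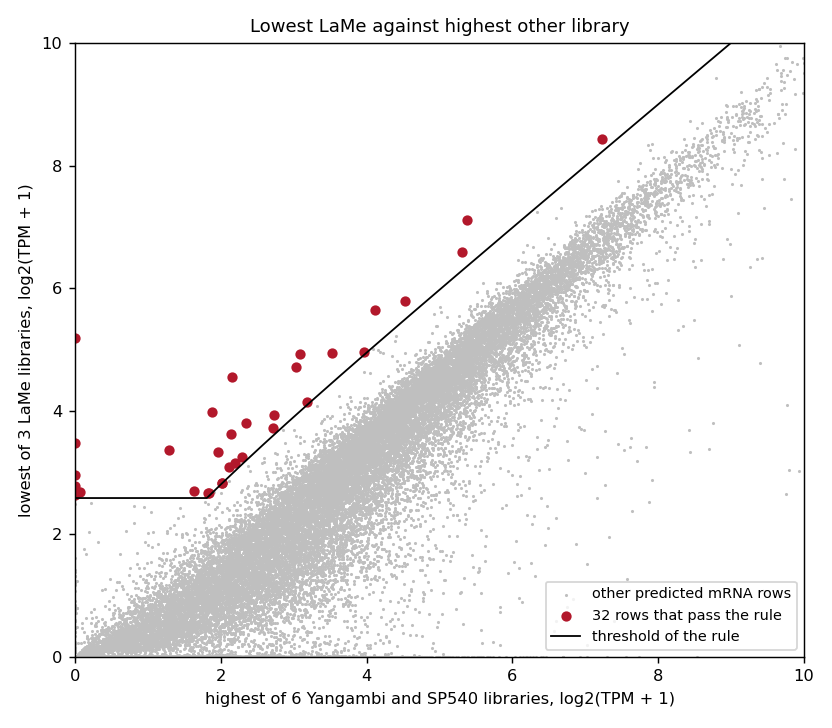
Lowest of the 3 LaMe libraries (y axis) against the highest of the 6 Yangambi and SP540 libraries (x axis) for predicted mRNA rows with a mean under 1000 TPM, both as log2(TPM + 1). The black line is the threshold of the rule, and the 32 rows above it are red. Several red dots lie on the left edge, at 0 in the other 6 libraries, and several lie close to the line.

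The gap between LaMe and the rest varied widely. In 6 rows the lowest LaMe value was at least 10 times the highest other value, in 10 rows it was at least 3 but under 10 times, and in 13 rows it was under 2.5 times. The first 6 were the rows, described below, under 1 TPM in all 6 other libraries, so no size of ratio is read from them. The row nearest to the limit from inside was XM_019850700.2 (LOC105041856), at 6.09, 7.87 and 7.91 TPM in low-, medium- and high-yield LaMe and at most 3.04 TPM elsewhere, a ratio of 2.001. Next came XM_010940254.3 (LOC105057602) with 2.03 and XM_010934187.2 (LOC105053139) with 2.06. Just outside stood XM_029268087.1 with a ratio of 1.97, XM_010928322.2 (LOC105048847) with 1.95 and XM_010938229.3 (LOC105056142) with 1.92. At the level limit, XM_029267991.1 was included with a lowest LaMe value of 5.23 TPM, while XM_010908948.3 (LOC105033963), at 4.68 to 6.02 TPM in LaMe and at most 0.168 TPM elsewhere, was left out. The edge of the group is thus a matter of the limits chosen, and similar rows lie on both sides.

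A first group of 6 rows was below 1 TPM in all 6 Yangambi and SP540 libraries. The highest of these in LaMe was XM_029263980.1 (LOC105043160), with 38.0 TPM in the low-yield, 38.4 TPM in the medium-yield and 35.6 TPM in the high-yield LaMe library. It was under 0.001 TPM in each of the other 6 libraries, and its LaMe values agreed to a coefficient of variation of 3.99%. XM_010940119.2 (LOC105057492) was measured at 10.2, 13.5 and 21.8 TPM in LaMe and was listed at 0 in all other libraries. These rows were measured in one population and were at or near 0 in the others, in every yield class.

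The remaining rows of this group had lower levels. XM_029262157.1 was at 6.79, 11.1 and 9.13 TPM and XM_029267991.1 at 5.23, 8.88 and 5.97 TPM in low-, medium- and high-yield LaMe, both without a paired gene. XM_019855299.1 (LOC105058962) was at 9.04, 6.06 and 5.87 TPM. XM_010911719.3 (LOC105035989) was at 5.46, 5.80 and 5.42 TPM in LaMe, and its only other value above 0.001 TPM was 0.0470 TPM in low-yield Yangambi. In 5 of the 6 rows all other libraries were under 0.001 TPM. No fold change is given for them, because depth is unknown and a value at or near 0 may be a failed estimate.

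**Figure D3:**
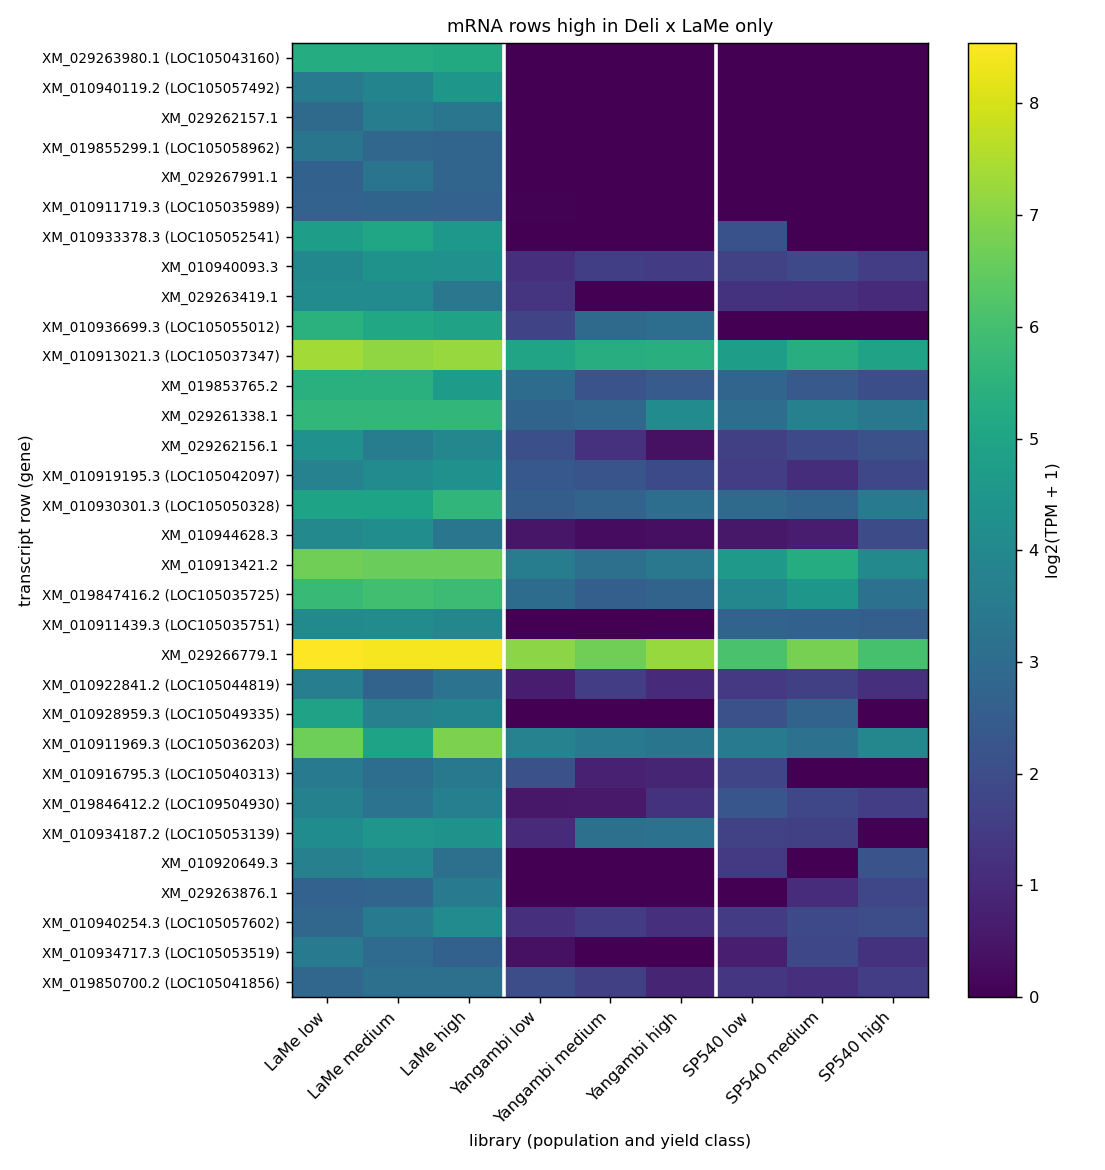
Levels of the 32 rows (y axis, with gene where paired, ordered by the gap between lowest LaMe and highest other library) in the 9 libraries (x axis), coloured by log2(TPM + 1). The 6 rows at the top are dark in all Yangambi and SP540 libraries, and the rows below them show graded differences.

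A second group of 7 rows was below 1 TPM in all 3 Yangambi libraries but not in all SP540 libraries. XM_010911439.3 (LOC105035751) was the most regular of them. It was at 15.7, 16.5 and 14.4 TPM in low-, medium- and high-yield LaMe, at 5.62, 5.28 and 4.99 TPM in SP540, and listed at 0 in all 3 Yangambi libraries. Its levels thus formed 3 separate steps, 1 for each population, with little spread within a step. The rule itself set LaMe apart from the rest, so only SP540 and Yangambi were free to overlap, and they did not. That comparison is given below beside all rows.

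Others of the 7 were irregular in SP540. XM_010933378.3 (LOC105052541) was at 26.6, 31.3 and 22.5 TPM in LaMe, and its only value above 0.001 TPM elsewhere was 3.44 TPM in low-yield SP540. XM_010928959.3 (LOC105049335) was at 29.2, 12.3 and 13.4 TPM in LaMe and at 3.35, 5.59 and 0 TPM in SP540. XM_010944628.3 was at 15.1, 17.2 and 9.12 TPM in LaMe, at 0.472, 0.553 and 2.90 TPM in SP540 and at 0.216 to 0.438 TPM in Yangambi. XM_010920649.3, XM_029263876.1 and XM_010934717.3 (LOC105053519), with LaMe means of 11.6, 7.18 and 7.58 TPM, reached 3.59, 2.55 and 2.58 TPM in their highest SP540 library. In these rows the SP540 libraries differed among themselves.

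The reverse, below 1 TPM in all 3 SP540 libraries but not in all Yangambi libraries, was seen in 1 row. The share of all rows with either pattern was not counted, so the 7 rows and the 1 row are a description only. XM_010936699.3 (LOC105055012) was at 43.3, 32.9 and 29.4 TPM in low-, medium- and high-yield LaMe and at 2.37, 6.79 and 7.49 TPM in the same order in Yangambi. It was under 0.001 TPM in all 3 SP540 libraries. A further 7 rows fell below 1 TPM in 1 to 4 of the 6 other libraries. Among them XM_029263419.1 was at 16.3, 16.6 and 9.35 TPM in low-, medium- and high-yield LaMe, at 1.44, 0 and 0 TPM in Yangambi and at 1.37, 1.33 and 1.05 TPM in SP540. XM_029262156.1, at 19.0, 11.4 and 14.6 TPM in LaMe and 0.305 to 3.38 TPM elsewhere, has an accession number next to that of XM_029262157.1, and it is named after its values were seen. The gene table pairs neither of these 2 rows, so it is not known here whether they belong to 1 gene.

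The last group of 11 rows was at 1 TPM or more in all 9 libraries, and it held the most abundant members. XM_029266779.1 was the highest, at 372, 344 and 346 TPM in low-, medium- and high-yield LaMe. In Yangambi it was at 132, 103 and 150 TPM and in SP540 at 67.9, 110 and 65.9 TPM. All 6 other libraries thus lay well under the LaMe values while still showing the transcript clearly. XM_010913021.3 (LOC105037347) was at 164, 138 and 147 TPM in LaMe, between 31.0 and 40.4 TPM in Yangambi and between 26.6 and 39.1 TPM in SP540, so that the 2 other populations overlapped. XM_010913421.2 was at 104, 96.4 and 94.9 TPM in LaMe, between 7.81 and 11.4 TPM in Yangambi and between 15.2 and 38.4 TPM in SP540.

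The rows of this group ranged from very even to uneven within LaMe. XM_029261338.1 was at 49.3, 49.98 and 49.3 TPM in the 3 LaMe libraries, a coefficient of variation of 0.818%, and at 5.80 to 16.3 TPM elsewhere. XM_019847416.2 (LOC105035725) was at 54.7, 61.1 and 57.1 TPM in LaMe and at 5.02 to 22.1 TPM elsewhere. Less even were XM_019853765.2 and XM_010940093.3, at 36.7 ± 9.82 TPM (SD, n = 3) and 18.0 ± 2.88 TPM in LaMe, with highest other values of 7.14 and 2.69 TPM. The least even was XM_010911969.3 (LOC105036203), at 101 TPM in the low-yield, 30.2 TPM in the medium-yield and 115 TPM in the high-yield LaMe library, against 8.10 to 14.6 TPM elsewhere. Its place in the group rests on a medium-yield value that is far under the other two.

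Among the 3 LaMe libraries the median coefficient of variation of the 32 rows was 22.3%, with a range of 0.818% to 55.5%. Over the 13284 rows, which were not matched to them for level, the median was 13.3%. The highest and lowest LaMe values lay within 1.5 times of each other in 16 rows and more than 2 times apart in 5. The low-yield library was the highest in 12 rows, the medium-yield library in 13 and the high-yield library in 7. No yield class led the group as a whole.

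Whether these rows also follow oil yield was asked with the yield contrasts, which the rule did not use. Values were compared as log2(TPM + 1) with limma, in an additive model of population and yield class, over all 30576 rows that reached 1 TPM in 3 or more libraries. A row is called when its Benjamini-Hochberg adjusted p, computed over all rows tested, is under 0.05. The LaMe values were by themselves enough for each of the 32 rows to pass that filter. They were also needed for every row that reached 1 TPM in fewer than 3 of the other libraries. For 6 rows all other libraries were below 1 TPM. In further rows 4 or 5 of the 6 other libraries were below 1 TPM. These were XM_010933378.3, XM_010944628.3, XM_010928959.3, XM_010916795.3, XM_010920649.3, XM_029263876.1 and XM_010934717.3, which stay in the counts below. XM_010916795.3 had an unadjusted limma p under 0.05 in each yield contrast. The first 6 rows can show a yield difference in LaMe only. Counts are therefore given for the other 26, a limit set after the values were seen, beside the 30500 tested rows that likewise reached 1 TPM in a Yangambi or SP540 library. For high against low yield 0 of 26 were called by limma, the only test run, against 0% of all rows. At an unadjusted p under 0.05 there were 3 of 26, against 4.67% of the 30500 rows. The median difference was -0.02 with 13 rows higher and 13 lower, against a median of 0.03 over the 30500 rows. For medium against low yield 0 of 26 were called, against 0% of all rows, and 1 had an unadjusted p under 0.05, against 3.48%. A joint test for any yield difference called 0, against 0%, with 2 at an unadjusted p under 0.05, against 4.22%. None of the 6 rows left out was called in these contrasts either.

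The row with the smallest yield p was XM_010930301.3 (LOC105050328). It was at 29.8, 30.3 and 48.7 TPM in low-, medium- and high-yield LaMe, at 4.77, 5.55 and 7.42 TPM in Yangambi and at 6.67, 5.75 and 10.5 TPM in SP540. The high-yield library was the highest in all 3 populations. The difference between high and low yield was 0.61 on the log2(TPM + 1) scale (SE 0.169), and it did not pass over all rows (limma adjusted p = 0.987). XM_019853765.2 lay lower in high-yield than in low-yield libraries in 3 of 3 populations, with a difference of -0.67 (SE 0.237), as did XM_010916795.3 (LOC105040313) with -1.02 (SE 0.409), and neither passed (limma adjusted p = 0.987 for both). High stood above low yield in 3 of 3 populations in 4 of the 26 rows, against 13.8% of the 30500, and below it in 4, against 9.81%. Of these, XM_029263876.1 (above) and XM_010916795.3 (below) passed the filter only with their LaMe values.

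SP540 was then compared with Yangambi, a contrast between the 6 libraries that the rule bounded from above but did not set against each other. The 6 rows below 1 TPM in both populations could hardly differ here and are left out of the counts, a limit set after the values were seen. None of the other 26 rows was called, against 1 of 30576 rows (0.00327%). At an unadjusted p under 0.05 there were 8 of 26, against 9.57% of the 30500 rows, which were not matched to them for level. With the 6 rows kept it was 8 of 32 (25%), against 9.54% of the 30576 rows. Of these 8, 6 were higher in SP540, among them XM_010934717.3 and XM_010928959.3. Those rows passed the filter only with their LaMe values, so the count is not free of the selection. The median difference, SP540 minus Yangambi, was 0.43 among the 26 rows and 0.07 over the 30500. All 3 SP540 values lay above all 3 Yangambi values in 6 of 26 rows, against 9.45% of the 30500, and all Yangambi values above all SP540 values in 2, against 5.42%. Among those 6, XM_010934717.3 and XM_010944628.3 passed the filter only with their LaMe values. In XM_010944628.3 only the high-yield SP540 library, at 2.90 TPM, was above 1 TPM outside LaMe. The SP540 libraries listed 35262 to 37060 rows above 0 and the Yangambi libraries 33581 to 35299, ranges that overlapped, and their part in the comparison was not tested.

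XM_010911439.3, with its 3 steps, came closest to a call in this comparison. It was higher in SP540 than in Yangambi by 2.65 on the log2(TPM + 1) scale (SE 0.257, limma adjusted p = 0.0513), and in 3 of 3 yield classes. It was called when TPM was summed per gene (limma adjusted p = 0.0248), where 14 were called over the whole table. With a pseudocount of 0.1 it was called too (limma adjusted p = 0.0424), where 5 of all rows were called. Without the yield term it was among 47 of all rows called. Over the 16 alternatives the lowest limma adjusted p among the members tested ran from 0.00529 to 0.261. XM_010936699.3 was lower in SP540 by -2.60 (SE 0.392, limma adjusted p = 0.143). XM_010913421.2 and XM_019847416.2 were higher in SP540 by 1.26 (SE 0.288) and 1.13 (SE 0.286), and neither passed (limma adjusted p = 0.295 and 0.344).

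**Figure D4:**
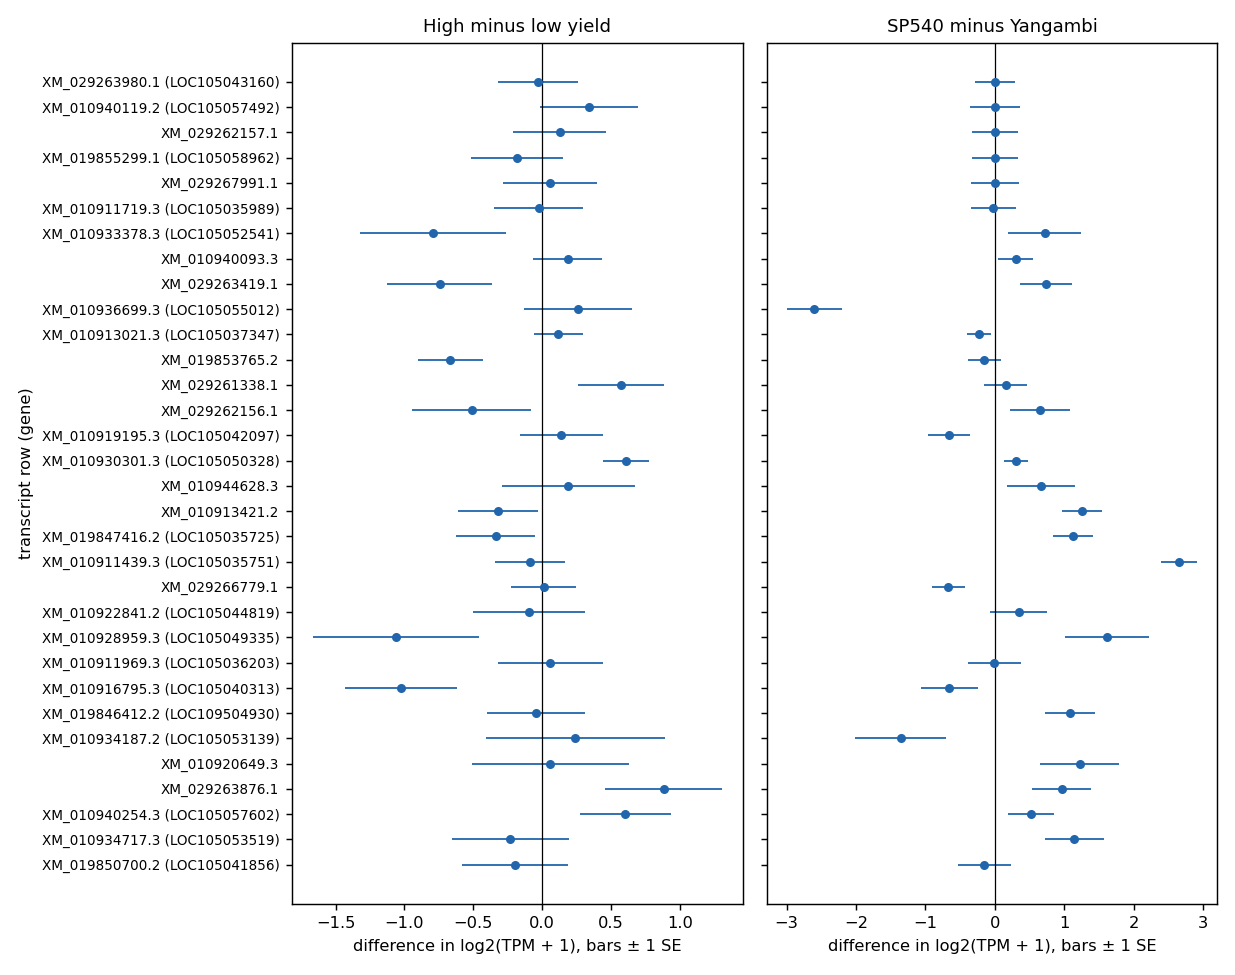
Differences in log2(TPM + 1) for the 32 rows (y axis, same order as in the plot of levels) between high and low yield (left) and between SP540 and Yangambi (right), with bars of 1 SE to either side from the additive limma model on 9 libraries. Yield differences centre on 0, and the largest population differences belong to XM_010911439.3 at 2.65 and XM_010936699.3 at -2.60.

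A gene can give rise to several transcripts through alternative starts, splicing or ends, so a transcript high in LaMe may reflect the whole gene or a shift between its transcripts. For 16 of the 20 paired genes the table held a single row, and transcript and gene could not be separated. The other 4 genes held 8 further rows that were not members. In all 4 the sum over the transcripts of the gene no longer met the 2-fold limit. The further rows were not used by the rule, but they were estimated jointly with the members from the same reads, so they are not fully independent of them. For LaMe against the other 6 libraries 7 of the 8 were tested and 1 was called, in the direction of lower in LaMe, against 0.477% of all rows called, 0.173% as higher and 0.304% as lower in LaMe.

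The row called was XM_019855298.2, the only other transcript of LOC105058962 in the table. It was listed at 0, 0 and 0.742 TPM in low-, medium- and high-yield LaMe, at 8.62, 6.75 and 8.65 TPM in Yangambi and at 6.20, 11.1 and 8.70 TPM in SP540. The groups did not overlap, and the difference, LaMe minus the mean of the other populations, was -2.94 on the log2(TPM + 1) scale (SE 0.292, limma adjusted p = 0.0139). Its partner XM_019855299.1 had the mirror pattern described above. Summed, the gene was at 7.24 ± 1.58 TPM in LaMe, 8.004 ± 1.09 TPM in Yangambi and 8.66 ± 2.44 TPM in SP540 (SD, n = 3 each). The member made up 88.8 to 100% of the gene in the LaMe libraries and 0% in the others, so the populations differed in which transcript was listed while the sums overlapped. The call was lost without the low-yield (limma adjusted p = 0.103), medium-yield (0.0995) or high-yield (0.0634) LaMe library, and without the high-yield Yangambi library (0.0537), and the difference lay between -3.17 and -2.77 over the 9 single libraries left out. It was -5.35 with a pseudocount of 0.1 and -1.34 with a pseudocount of 5, so its size follows the pseudocount.

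In LOC105057492 the member stood beside 2 transcripts that were measured in all 3 populations. XM_010940118.2 was at 30.7, 36.1 and 38.4 TPM in LaMe and at 30.5 to 46.4 TPM in the other libraries, with a difference of -0.14 (SE 0.157, limma adjusted p = 0.788). XM_029268204.1 was at 9.44, 4.49 and 10.3 TPM in LaMe and at 0 to 5.71 TPM elsewhere (difference 1.21, SE 0.556, limma adjusted p = 0.444), and it adds to the LaMe sum too. The member XM_010940119.2 made up 20.3 to 30.9% of the gene in LaMe. The sum was 58.3 ± 10.7 TPM in LaMe, 42.7 ± 5.42 TPM in Yangambi and 42.2 ± 5.79 TPM in SP540 (SD, n = 3 each). The lowest LaMe sum exceeded the highest other sum by a ratio of only 1.05.

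Of the 2 remaining genes, LOC105053519 was in part like LOC105058962, with a larger share of the member in LaMe and overlapping sums. In LOC105053519 the member XM_010934717.3 made up 55.5 to 79.1% of the gene in LaMe and 0 to 26.9% elsewhere, and the gene sums overlapped, at 11.5 ± 4.04, 7.88 ± 0.464 and 8.39 ± 3.21 TPM in LaMe, Yangambi and SP540. Of its 3 other transcripts, XM_010934718.3 was at 2.89, 0 and 0 TPM in LaMe against 1.19 to 5.75 TPM elsewhere (difference -1.38, SE 0.455, limma adjusted p = 0.288). XR_002165706.2 was lower in LaMe too (difference -0.91, SE 0.465, limma adjusted p = 0.487). XM_010934714.3 was higher (difference 0.30, SE 0.339, limma adjusted p = 0.786), and none of the 3 passed. In LOC105040313 the other main transcript, XM_019848873.2, was itself at 2.78 to 4.64 TPM in LaMe, under 0.001 TPM in Yangambi and at 6.29, 1.53 and 0 TPM in SP540. It did not pass (difference 1.43, SE 0.532, limma adjusted p = 0.347). The gene sum was 12.9 ± 0.706 TPM in LaMe, 1.62 ± 1.46 TPM in Yangambi and 3.61 ± 4.51 TPM in SP540, where the low-yield library stood far above the others.

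The surroundings of the 20 paired genes in the genome were also compared. Only the order of genes in the reference assembly EG11 was used, since the build behind the deposited table is not given in the sources used here. LOC105035725 and LOC105041856, both member genes, were next to each other, and no other pair of member genes was. Their rows differed in level and pattern: XM_019847416.2 was about 57.6 TPM in LaMe, with a SP540 mean of 15.0 TPM above the Yangambi mean of 5.91 TPM, whereas XM_019850700.2 was at 7.29 TPM in LaMe and at 1.57 and 1.99 TPM in SP540 and Yangambi. The other neighbours, the next gene on either side, gave 24 rows, of which 16 were tested for LaMe against the other 6 libraries. None was called, against 0.477% of all rows, and 2 of 16 had an unadjusted p under 0.05, against 12.3%. Their median difference was -0.01, and that over all rows was -0.05, and the lowest limma adjusted p was 0.264. For 19 of the 40 neighbouring genes the table held no row, so the surroundings were seen only in part.

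The likeness of members to each other was examined over the 11 rows present at 1 TPM or more in all 9 libraries, by the spread of the ratio of 2 rows across libraries. Among the 55 pairs the most alike were XM_010913421.2 and XM_019847416.2 (LOC105035725). Their ratio lay between 1.56 and 1.89 in all 9 libraries, and its SD on the log2 scale was 0.1001, against a median of 0.741 over the 55 pairs. Both were highest in LaMe and, outside it, in the medium-yield SP540 library, at 38.4 and 22.1 TPM. XM_010913421.2 has no partner in the gene table, so whether the 2 rows come from copies of a gene that share reads is unknown here, and they may not be separate measurements. The next pair, XM_029266779.1 and XM_010913021.3, had an SD of 0.323.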

How the data were processed

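Leaf RNA of 9 oil palm libraries was analysed, 3 per population. The authors deposited 1 table of TPM values, in which every column sums to 1000000; the file is named as counts but holds no counts. The submitters' processing notes name fastp, kallisto and DESeq2 without versions; for the transcript set and build, none is given in the sources used here. kallisto divides reads that match several transcripts by estimation, so near-identical copies are uncertain. Depth is unknown, so no counting intervals are given. Row accessions were matched without version number to RefSeq genes of assembly EG11, which paired 31716 rows (61.6%). The 30576 rows that reached 1 TPM in 3 or more libraries were fitted as log2(TPM + 1), a scale that understates changes at low level, with limma 3.58.1 (trended, robust prior; statmod 1.5.0; R 4.3.3), population and yield class as additive terms, 4 residual degrees of freedom and two-sided tests. The table had been planned for as possible counts; no count test was run. The fit was checked on simulated data. The group and all comparisons were chosen with earlier results of these data known. Rows are named by the size of the gap, by LaMe level, by nearness to a limit, by smallest p and by shared or neighbouring genes. Groups by protein sequence were planned but no protein or product table was at hand, so no sequence is shown. Pseudocounts, filters, scaling, gene sums, the second factor and single libraries were varied.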

Additional observations from a re-analysis of the deposited data

How the results depend on the processing

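The number of rows followed the limits of the rule. It was 62 at 1.5 times, 16 at 3 times, 59 with a minimum of 2 TPM and 18 with a minimum of 10 TPM, in place of 32. It was 33 after median-ratio scaling of the libraries and 28 with mRNA rows summed per gene. Summing could alter only the 4 members whose gene held more than 1 row, and all 4 dropped out. Leaving out a library can only add rows, so the 34 to 47 found then say nothing about stability. The yield contrasts called none of the 26 to 32 rows tested under any of 16 alternatives each, and none of the 11 to 21 neighbouring rows tested was called for LaMe. SP540 against Yangambi called 1 member (XM_010911439.3) with a pseudocount of 0.1, where 5 of all rows tested were called. With TPM summed per gene it called 1 (its gene, LOC105035751), where 14 were called over the whole table. Without the yield term it called 2 (XM_010911439.3 and XM_010936699.3), where 47 of all rows were called. The main fit called 0 members and 1 of all rows. Leaving out single libraries gave 0 members and 0 to 11 of all rows. The number of other transcripts called for LaMe ranged from 0 to 1 without single libraries, and the cause was not tested. Over all rows 27 to 91 were called in those fits, against 146 in the main fit. The labels match libraries across populations only by yield class, and the yield class term in the model accounts for that matching. No other pairing was used. With 3 libraries a group and unknown depth, rows that were not called may still differ, and no limit of detection is given.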
